A study of Mus musculus with 27 samples.

Results

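Chromatin accessibility was described at 26 regions around 8 genes of the fibroblast matrix and fibroblast identity, out of 30815 regions counted by ATAC-seq, an assay in which a transposase cuts and tags open DNA. A region was taken where it overlapped by at least 1 base any of 7 windows of the mouse build mm9, 1350 kb in all, given for Col1a1, Col1a2, Col3a1 together with Col5a2, Fn1, Postn, Acta2 and Tcf21. The windows held 7, 3, 7, 4, 1, 2 and 2 regions, in that order, and the regions are numbered here by position within a window (Col1a1-4 is the fourth of Col1a1). The choice used positions only, not measured values. No mm9 gene annotation was used, so regions are placed in a window and not in an exon, an intron or a promoter.

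The cells were neonatal mouse cardiac fibroblasts of a line expressing large T antigen (strain Cd-1, alpha-MHC-GFP reporter), infected with retroviruses and transposed, unsorted, on day 2. Control cells received dsRed and no chemical. The other 7 groups received Gata4 (G), Mef2c (M), Tbx5 (T), Gata4 with Mef2c (GM), Gata4 with Tbx5 (GT), Mef2c with Tbx5 (MT) or all factors (GMT), and all of these were cultured with sb431542, a TGF-beta inhibitor, and xav939, a Wnt inhibitor. Each group had 3 libraries that the labels call biological replicates, without saying what separates them. A further 3 samples of dsRed cells with both inhibitors were not analysed here. In every comparison with the control the factors and the inhibitors therefore cannot be told apart, whereas comparisons among the 7 factor groups were matched for the inhibitors. In these unsorted populations, a smaller share of cells with an open region and a less open region per cell cannot be told apart.

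Fibroblasts secrete the fibrillar collagens: Col1a1 and Col1a2 encode the chains of type I collagen, Col3a1 that of type III, and Col5a2 a chain of type V collagen, which helps fibrils form. Fn1 encodes fibronectin, an adhesive glycoprotein on which cells and collagen assemble, and Postn encodes periostin, a secreted matrix protein of activated cardiac fibroblasts. Acta2 encodes smooth muscle alpha-actin, the contractile actin of myofibroblasts, and TGF-beta signalling is known to raise it together with the collagens. Tcf21 is a transcription factor of the cardiac fibroblast lineage. Gata4, Mef2c and Tbx5 are transcription factors of the developing heart that together can turn fibroblasts towards a cardiomyocyte-like state.

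Library totals ran from 241394 to 1704896 counts with a median of 661976, and the 26 regions made up 0.0844% of all regions. Of the 24 libraries, 4 resembled another group more than their own, by mean Spearman correlation over regions. Among them, G replicate 2 was closest to the control, at 0.823 beside 0.802 within G. GM replicate 2 was likewise closest to the control, at 0.815 beside 0.805 within GM. These were left out singly in the fits below, not together. The widest gaps were those of GT replicate 1 (0.726 with its own group and 0.893 with G) and GMT replicate 1 (0.707 with its own and 0.772 with MT), and GMT replicate 1 was also the shallowest library. Called results below that use GT, GMT or averages over them are also given without both libraries.

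Promoter sequences are shown for the listed genes whose windows held a called region below, and for Tcf21, because the 3 introduced factors bind known short motifs that can be looked for in them. RefSeq (build GRCm38.p6) listed 5 of the 8 genes, Col1a2, Col3a1, Postn with 2 starts, Acta2 and Tcf21. The 250 bases before each start were searched on both strands for GATAA (GATA factors), TAAAAATA (MEF2) and AGGTGT (T-box factors), which do not overlap one another in these windows. Lower case is the strand of the gene, 5′ to 3′, and capitals mark a match.
Col1a2, chr6:4505368-4505617, plus strand: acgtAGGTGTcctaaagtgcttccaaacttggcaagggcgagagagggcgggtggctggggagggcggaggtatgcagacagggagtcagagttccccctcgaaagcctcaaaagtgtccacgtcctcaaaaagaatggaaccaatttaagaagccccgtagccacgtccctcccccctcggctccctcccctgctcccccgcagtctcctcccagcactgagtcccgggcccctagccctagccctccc
Col3a1, chr1:45311288-45311537, plus strand: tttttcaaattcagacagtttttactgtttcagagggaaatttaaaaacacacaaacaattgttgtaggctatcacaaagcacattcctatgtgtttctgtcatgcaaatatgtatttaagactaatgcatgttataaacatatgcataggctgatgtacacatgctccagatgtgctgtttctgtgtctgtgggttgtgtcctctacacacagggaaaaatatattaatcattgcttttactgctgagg
Postn, downstream start, chr3:54360857-54361106, plus strand: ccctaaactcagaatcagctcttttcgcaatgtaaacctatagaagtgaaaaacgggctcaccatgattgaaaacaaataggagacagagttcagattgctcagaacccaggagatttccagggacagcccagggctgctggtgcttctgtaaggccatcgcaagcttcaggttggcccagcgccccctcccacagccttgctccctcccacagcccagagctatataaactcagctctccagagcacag
Acta2, chr19:34255374-34255623, minus strand: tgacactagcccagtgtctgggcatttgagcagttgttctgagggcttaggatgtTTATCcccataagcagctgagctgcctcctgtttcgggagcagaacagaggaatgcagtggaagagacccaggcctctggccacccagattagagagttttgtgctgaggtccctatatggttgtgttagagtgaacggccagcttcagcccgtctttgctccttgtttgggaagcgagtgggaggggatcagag
Tcf21, chr10:22820144-22820393, minus strand: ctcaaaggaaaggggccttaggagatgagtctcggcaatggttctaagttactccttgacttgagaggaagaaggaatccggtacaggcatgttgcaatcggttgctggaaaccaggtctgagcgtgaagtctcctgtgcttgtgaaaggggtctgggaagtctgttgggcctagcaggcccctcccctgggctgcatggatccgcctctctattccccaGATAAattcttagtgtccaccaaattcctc
Col1a2 held AGGTGT 246 bases before its start, Acta2 held GATAA on the opposite strand 195 bases before, and Tcf21 held GATAA 30 bases before. The windows of Col3a1 and of both Postn starts held none of the 3. Among 32851 promoter windows of the same length, 22.6% held GATAA, 2.45% TAAAAATA and 11.8% AGGTGT. A match describes the letters and is not a binding site. Since these coordinates belong to another build than the counted regions, no region was placed relative to a promoter.

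Levels are CPM, the count of a region scaled to a common library size after TMM scaling, which makes libraries comparable. By mean log2 level over all libraries, the most accessible region of the Col1a1 window, Col1a1-6, stood at the 91.2 percentile of all 30815 regions, and Col1a1-4 at the 89.8 percentile. The leading regions of the other windows were lower: Col3a1/Col5a2-5 stood at the 69.2 percentile, Col1a2-1 at 63.9, Fn1-4 at 62.4, Postn-1 at 62.2, Acta2-1 at 60.2 and Tcf21-2 at 43.6. In the control libraries alone, Col1a1-6 stood at the 87.1 percentile, Col3a1/Col5a2-5 at 81.9, Acta2-1 at 79.7 and Col1a2-1 at 77.9. Fn1-4 stood at 65.2 there, Tcf21-2 at 54.3 and Postn-1 at 39.1. Each leading region was picked as the highest of its window, which raises its percentile. These levels are per region and not corrected for width. Per 100 bp, Col1a1-4 (221 bp) averaged 36.1 CPM and Col1a1-6 (492 bp) 19.4 CPM, the reverse of their order above. The regions carry no gene names and no expression was measured here, so the fibroblast label was not checked.

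Of the 26 regions, 14 passed the filter on low counts and were tested: 5 of Col1a1, 1 of Col1a2, 2 of Col3a1 and Col5a2, 3 of Fn1, 1 of Postn and 2 of Acta2. The other 12, with both Tcf21 regions among them, had too few counts. A region is called where edgeR's quasi-likelihood test gave a Benjamini-Hochberg adjusted p under 0.05 over the 20494 regions tested. Each library was also left out in turn, and a number in parentheses after a left-out library or another setting is the adjusted p obtained that way. In 11 comparisons, 7 with the control, 1 of the average of the 7 factor groups with the control and 3 averages over the addition of a factor, 10 of the 14 were called at least once, against 69.9% of all regions tested. The 4 never called were Col1a1-2, Col1a1-3, Col3a1/Col5a2-7 and Fn1-4.

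Each count of called members is given here beside the share of all regions tested that was called, in both directions together and then higher and lower. Against the control, G gave 2 higher and 1 lower of the 14 (all regions 15.7%, 9.61% higher and 6.07% lower). M gave 1 higher and 3 lower (16.1%, 9.67% and 6.47%). T gave 1 higher and 1 lower (25.1%, 14.5% and 10.6%). GM gave 2 higher and 1 lower (12.2%, 8.5% and 3.75%). GT gave 2 higher and 1 lower (18.9%, 13.1% and 5.81%). MT gave 1 higher and 0 lower (24.7%, 17.5% and 7.2%). GMT gave 2 higher and 2 lower (33.5%, 23% and 10.5%). The average of the 7 factor groups gave 1 higher and 3 lower (20.9%, 10.3% and 10.6%). The share of members called was above the background in G, M, GM, GT and the average and below it in T, MT and GMT, and with 14 regions none of these differences was tested. Calls went both ways in all of these comparisons except MT, where the single call was higher. The median log2 fold change of the 14 ran from -0.52 in T (all regions -0.024) to 0.44 in MT (all regions 0.060).

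**Figure D1:**
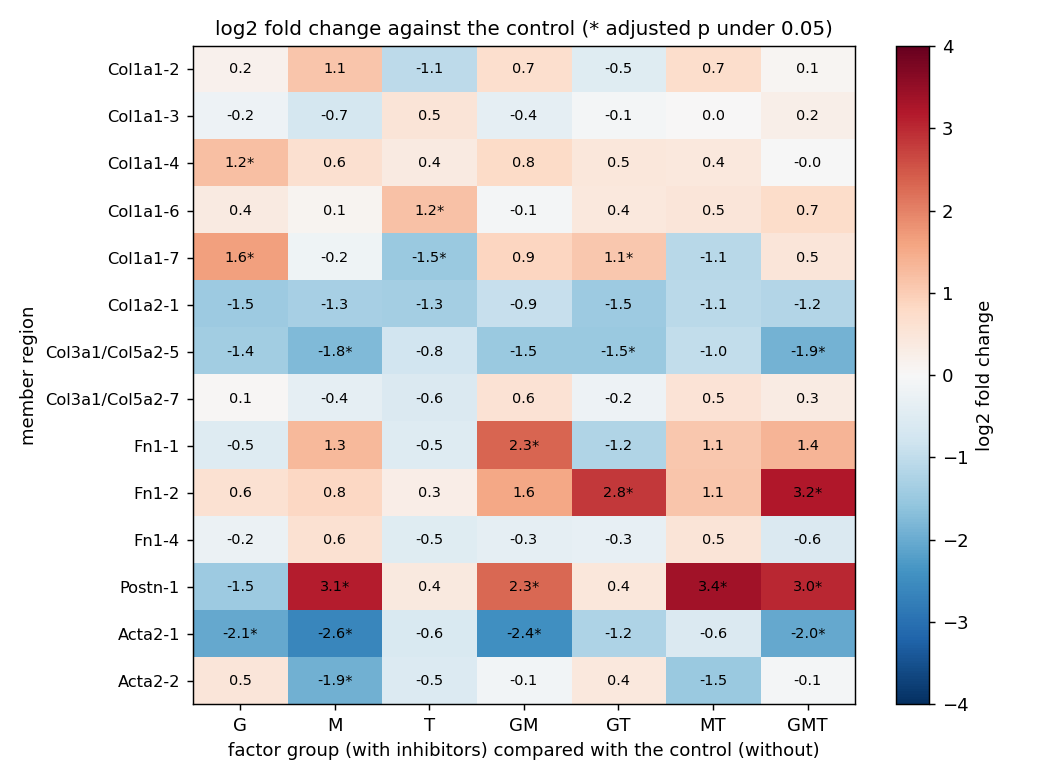
Log2 fold changes of the 14 tested regions (vertical axis) in each factor group against the control (horizontal axis), with colour and printed value giving the size and direction; factors and inhibitors changed together. Postn-1 was called higher in the 4 groups that received M, and Acta2-1, Col1a2-1 and Col3a1/Col5a2-5 had values below 0 in all 7, with an asterisk where the adjusted p was under 0.05.

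The Col1a1 window held the most accessible regions, and its regions did not move together. Col1a1-4 (chr11:94798448-94798668, 221 bp) was highest in G, at 118, 117 and 149 CPM, against 51.2, 53.4 and 60.5 CPM in the control. No G library overlapped any control library. It rose in G against the control by a log2 fold change of 1.21 ± 0.26 (SE, edgeR adjusted p = 0.00195, n = 3 per group), and the call held without each library in turn. The remaining groups lay between the control and G, with M at 78.6, 85.8 and 95.4 CPM, T at 67.4, 73.5 and 74.1 CPM and GM at 98.0, 76.9 and 104 CPM, except GMT, which at 44.1, 49.0 and 67.4 CPM overlapped the control. In the order of group means, G above GM and T above the control were the only neighbours whose libraries did not overlap.

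Col1a1-7 (chr11:94865458-94865781, 324 bp) separated G from T. It measured 129, 70.1 and 206 CPM in G, 8.79, 14.4 and 22.8 CPM in T, and 40.1, 50.8 and 42.6 CPM in the control, so that every G library was above and every T library below the control. It was higher in G than in the control by 1.63 ± 0.39 on the log2 scale (edgeR adjusted p = 0.00444, n = 3 per group) and lower in T by -1.48 ± 0.48 (adjusted p = 0.0195). In the groups with both G and T or with G and M it stayed above the control on average, at 92.8 ± 27.1 CPM in GT and 80.1 ± 30.7 CPM in GM (SD, n = 3), and it was low in MT at 20.4 ± 1.53 CPM. The GT call (1.07 ± 0.39, edgeR adjusted p = 0.0496) ended in 20 of the 24 fits that left out a library, with adjusted p up to 0.222 without GT replicate 2, and held only without G replicate 2, G replicate 3, GT replicate 3 or GMT replicate 2. It also ended without both apart libraries (0.0762), with the replicate number as a block (0.054), with DESeq2 (0.0541) and with no filter (0.0989). Without G replicate 3 the G call ended (1.17, edgeR adjusted p = 0.0812), and the T call ended without control replicate 2 (0.0639), T replicate 1 (0.0971) or T replicate 2 (0.0725).

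Col1a1-6 (chr11:94854196-94854687, 492 bp), the leading region of the window, was highest in T. The T libraries stood at 170, 188 and 120 CPM and the control libraries at 64.6, 84.7 and 62.4 CPM, without overlap. Its rise in T was 1.17 ± 0.33 (log2, SE, edgeR adjusted p = 0.00743, n = 3 per group), and the call ended without T replicate 2 (adjusted p = 0.0694). In GT the libraries spread over 54.3, 133 and 96.5 CPM and in GMT over 60.2, 163 and 119 CPM, and the lowest value in each was that of replicate 1, the library that stood apart. Col1a1-6 was thus highest on average in the group where Col1a1-7, which starts 11262 bp further on, was lowest.

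Col1a1-2 and Col1a1-3, 2 neighbours at the start of the window, had lower or more scattered levels and no call against the control. Col1a1-3 (chr11:94777874-94778197) averaged 64.9 ± 27.2 CPM in T, 44.8 ± 7.12 CPM in the control and 27.5 ± 2.25 CPM in M (SD, n = 3). Col1a1-2 (chr11:94774683-94774893) showed the opposite order, with 19.2 ± 1.40 CPM in M, 8.47 ± 5.19 CPM in the control and 3.73 ± 3.80 CPM in T (SD, n = 3), and 1 of its T libraries had a count of 0, which allows up to 8.79 CPM.

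**Figure D2:**
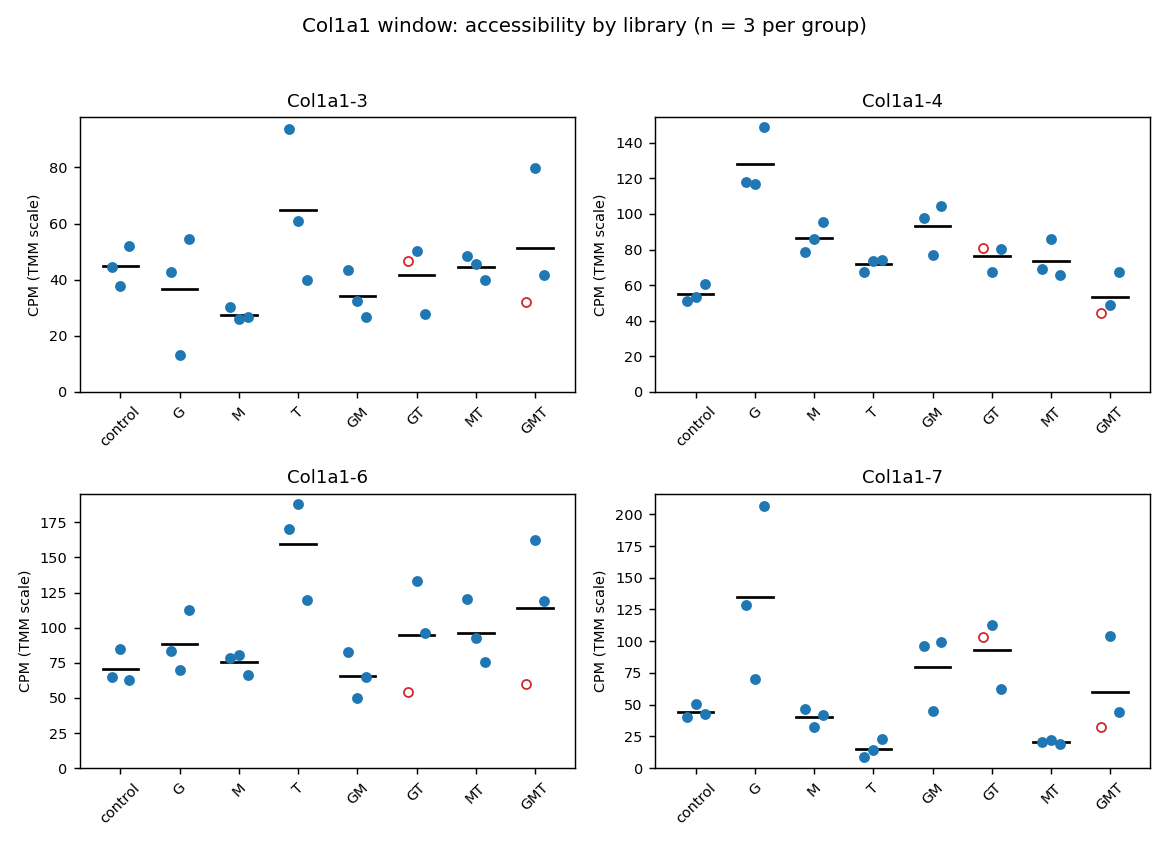
CPM on the TMM scale (vertical axis) of 4 Col1a1 regions in each library by group (horizontal axis, n = 3 per group); points are libraries, bars are group means, and open red circles are GT replicate 1 and GMT replicate 1. Col1a1-4 and Col1a1-7 were highest in G, Col1a1-3 and Col1a1-6 in T.

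The leading regions of the other collagen windows were higher on average in the control than in each factor group. Col3a1/Col5a2-5 (chr1:45412894-45413094, 201 bp) measured 40.1, 44.3 and 59.6 CPM in the control. Single factors gave 11.8, 23.4 and 21.2 CPM in G, 15, 15.5 and 11.1 CPM in M, and 32.2, 25.1 and 28.5 CPM in T, all below every control library. In MT the region overlapped the control, at 18.4, 16.8 and 42.4 CPM, and was not called (edgeR adjusted p = 0.149). In the average of the 7 factor groups it fell by 1.40 ± 0.34 on the log2 scale (edgeR adjusted p = 0.00421), and by 1.53 ± 0.28 (adjusted p = 0.000135) without GT replicate 1 and GMT replicate 1. Among single groups, the calls were M (-1.77 ± 0.52, edgeR adjusted p = 0.0171), GT (-1.50 ± 0.51, adjusted p = 0.036) and GMT (-1.88 ± 0.55, adjusted p = 0.00942).

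GMT replicate 1 went against the other GMT libraries at this region, at 40.1 CPM (10 counts) beside 3.87 and 8.92 CPM. Without it the GMT difference was -2.98, and with GT replicate 1 also left out -2.88 ± 0.53 (edgeR adjusted p = 6.08e-05). The GT call at Col3a1/Col5a2-5 ended without GT replicate 1 (adjusted p = 0.115), GT replicate 2 (0.102), control replicate 2 (0.0688) or control replicate 3 (0.159), and with both apart libraries left out (0.0605). Without control replicate 3 the calls in M (0.0922), GMT (0.0519) and the average of 7 groups (0.0873) also ended. The M call further ended without M replicate 2 (0.0639) or M replicate 3 (0.0574), and the GMT call without GMT replicate 2 (0.096) or GMT replicate 3 (0.0921).

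Col1a2-1 (chr6:4453294-4453494, 201 bp), the only tested region of the Col1a2 window, was also highest in the control. The control libraries stood at 33.4, 40.4 and 35.9 CPM, and 20 of the 21 factor libraries were lower, from 5.01 CPM in M replicate 1 to 27.3 CPM in GM replicate 2. The exception was again GMT replicate 1, at 48.2 CPM from 12 counts, beside 6.45 and 8.92 CPM in the other GMT libraries. No single factor group was called, but the average of the 7 was lower than the control by -1.26 ± 0.38 (log2, SE, edgeR adjusted p = 0.0192), and by -1.40 ± 0.32 (adjusted p = 0.00139) without both apart libraries. The call ended without control replicate 2 (0.104) or control replicate 3 (0.1).

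The second tested region of the Col3a1 and Col5a2 window, Col3a1/Col5a2-7 (chr1:45551978-45552193), had 1 to 22 counts per library and no call. Its group means ran from 7.15 ± 4.65 CPM in T to 16.5 ± 5.16 CPM in GM (SD, n = 3), with 10.7 ± 4.32 CPM in the control, and no neighbours in that order were without overlap.

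Fibronectin's window held regions that were low in the control and rose with pairs of factors. Fn1-2 (chr1:71662992-71663469, 478 bp) measured 4.45, 1.30 and 4.73 CPM in the control, 8.85, 39.2 and 29.9 CPM in GT, and 8.03, 38.7 and 45.6 CPM in GMT. All GT and GMT libraries were above all control libraries, and replicate 1 was the lowest in each of these groups. Neither G (7.25, 2.60 and 4.94 CPM) nor T (2.93, 1.79 and 7.60 CPM) was called against the control. The rise was 2.84 ± 0.68 in GT (log2, SE, edgeR adjusted p = 0.00425, n = 3 per group) and 3.22 ± 0.67 in GMT (adjusted p = 0.000589). Without GT replicate 1 and GMT replicate 1 the rises were 3.27 ± 0.60 (adjusted p = 0.00012) and 3.51 ± 0.58 (adjusted p = 1.34e-05). The GT call ended without GT replicate 2 (0.0642).

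Fn1-1 (chr1:71594718-71595063, 346 bp) was highest in GM. The GM libraries stood at 17.1, 22.3 and 26.9 CPM, above the M libraries at 8.36, 10.3 and 13.3 CPM, which in turn were above the control at 6.68, 5.21 and 1.89 CPM. The difference of GM from the control was 2.34 ± 0.65 (log2, SE, edgeR adjusted p = 0.0163), and the call ended without control replicate 2 (0.0554), control replicate 3 (0.14) or GM replicate 3 (0.0669). These levels rest on 2 to 26 counts per library in the groups just named. The leading region of the window, Fn1-4 (chr1:71698374-71698634), was not called in any of the 11 comparisons, with 17.5 ± 2.90 CPM in the control, 26.5 ± 3.77 CPM in M and 10.2 ± 7.71 CPM in GMT (SD, n = 3).

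The single region of the Postn window rose against the control in all 4 groups that received M. Postn-1 (chr3:54240579-54240805, 227 bp) measured 43.5, 41.4 and 59.9 CPM in M, 52.1, 67.4 and 47.1 CPM in MT, 40.1, 33.5 and 55.5 CPM in GMT and 21.7, 27.3 and 31.6 CPM in GM. The groups without M were low: the control at 13.4, 3.91 and 1.89 CPM, G at 0.906, 5.19 and 1.41 CPM, T at 2.93, 5.38 and 11.4 CPM and GT at 8.85, 4.66 and 9.19 CPM. Every library with M was above every library without it. The rise was 3.15 ± 0.53 in M (log2, SE, edgeR adjusted p = 0.000101), 3.36 ± 0.52 in MT (2.72e-05), 3.02 ± 0.53 in GMT (0.000109) and 2.30 ± 0.55 in GM (0.00541).

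The M, MT and GMT calls at Postn-1 held without each library in turn, and the GM call ended without control replicate 3 (edgeR adjusted p = 0.0879). For the average of the 7 groups the rise was 1.60 ± 0.48 (adjusted p = 0.0182), an average over groups that differed widely. It was 1.57 ± 0.48 (adjusted p = 0.0142) without both apart libraries and 2.40 without control replicate 1, and was no longer called without control replicate 2 (0.126) or control replicate 3 (0.264). GMT replicate 1, which stood at control levels at Col1a2-1 and Col3a1/Col5a2-5, stood with the other GMT libraries here, and without both apart libraries the GMT rise was 3.05 ± 0.54 (adjusted p = 3.05e-05).

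The regions of the Acta2 window differed from each other. Acta2-1 (chr19:34326291-34326522, 232 bp) measured 44.5, 44.3 and 35.0 CPM in the control, 8.16, 20.8 and 5.65 CPM in G, 3.34, 2.07 and 17.7 CPM in M, and 5.92, 9.93 and 7.90 CPM in GM. These 3 groups did not overlap the control. Neither did GT (7.58, 15.9 and 32.2 CPM), which was not called (-1.24 ± 0.65, edgeR adjusted p = 0.192). T (14.7, 25.1 and 38.0 CPM) and MT (7.62, 25.3 and 58.9 CPM) overlapped the control and were not called. The differences from the control were -2.06 ± 0.69 in G (log2, SE, edgeR adjusted p = 0.039), -2.62 ± 0.75 in M (0.0141), -2.44 ± 0.72 in GM (0.0231) and -2.05 ± 0.74 in GMT (0.0317). For the average of the 7 groups it was -1.66 ± 0.45 (adjusted p = 0.00891), no longer called without control replicate 2 (0.0598), and -1.82 ± 0.38 (adjusted p = 0.000521) without both apart libraries.

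In GMT, replicate 1 stood at 36.1 CPM (9 counts) and the other libraries at 3.87 and 3.96 CPM, and without replicate 1 the GMT difference at Acta2-1 was -3.45 (-3.36 ± 0.74, edgeR adjusted p = 0.000494, with GT replicate 1 left out as well). The GMT call ended without control replicate 2 (0.0692), control replicate 3 (0.056), GMT replicate 2 (0.173) or GMT replicate 3 (0.22). The G call ended without any 1 control library (0.0682 to 0.0973) or without G replicate 1 (0.165) or G replicate 3 (0.208), and with DESeq2 (0.0589). The M call ended without M replicate 1 (0.0698) or M replicate 2 (0.128), and without M replicate 3 the difference was -3.93. The GM call ended without control replicate 2 (0.0666), control replicate 3 (0.06), GM replicate 1 (0.147) or GM replicate 3 (0.0622).

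Acta2-2 (chr19:34344795-34345066, 272 bp), which starts 18504 bp after Acta2-1, was lowest in groups with M and no G. It measured 22.3, 14.3 and 24.6 CPM in the control, 8.36, 6.21 and 0 CPM in M, and 8.26, 3.37 and 9.42 CPM in MT, where a count of 0 in M replicate 3 allows up to 6.65 CPM. In G it measured 38.1, 23.4 and 23.3 CPM and in GT 31.6, 31.7 and 16.1 CPM, both overlapping the control. It was lower in M than in the control by -1.91 ± 0.63 (log2, SE, edgeR adjusted p = 0.0334). That call ended without control replicate 1 (0.0522), control replicate 3 (0.14), M replicate 2 (0.0923) or M replicate 3 (0.117).

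**Figure D3:**
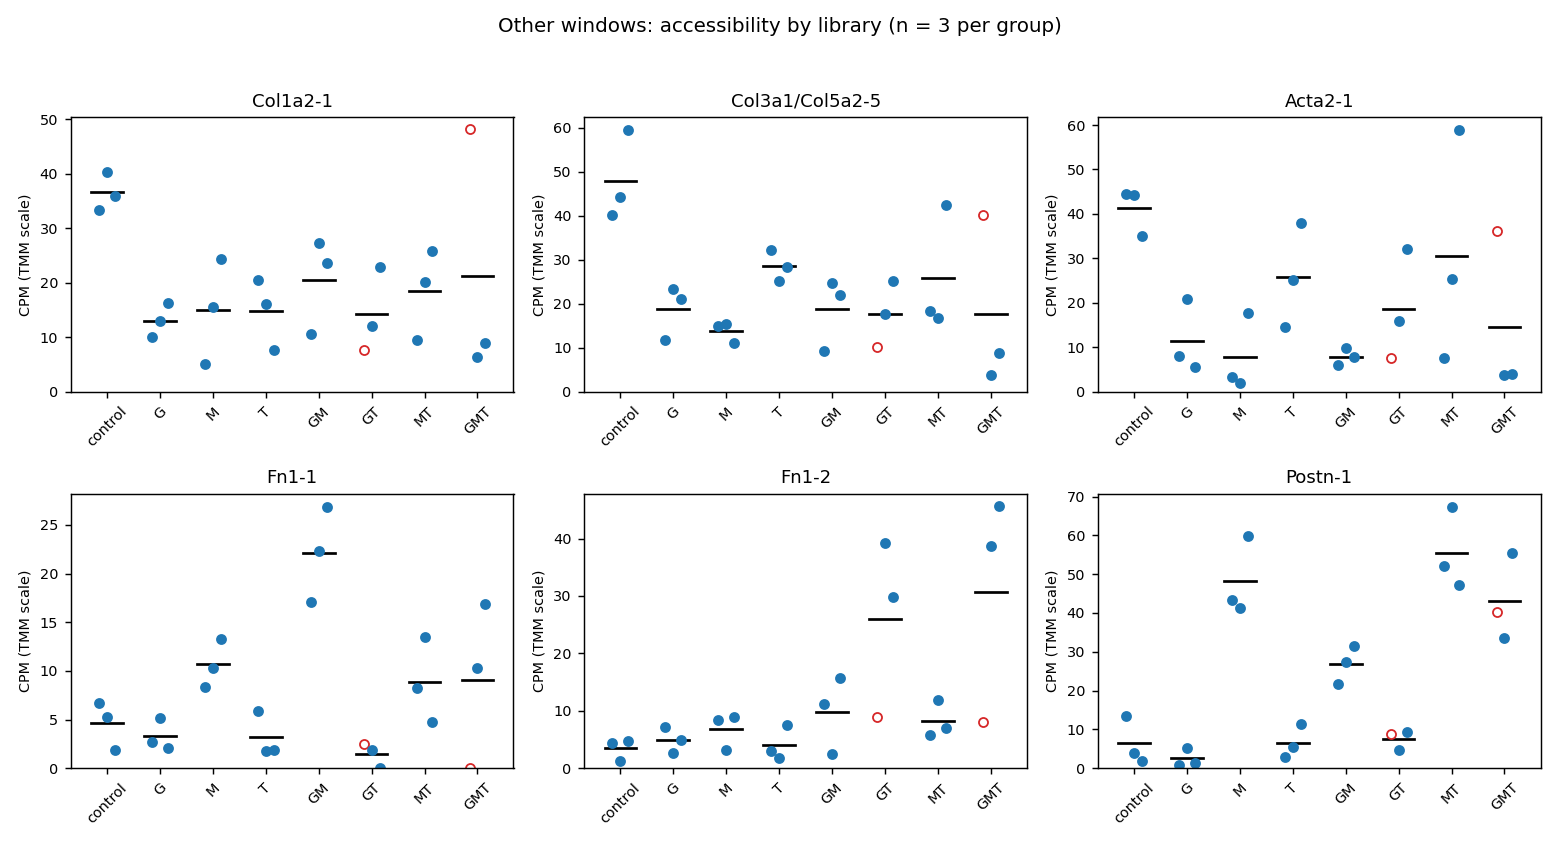
CPM on the TMM scale (vertical axis) of regions in the Col1a2, Col3a1 and Col5a2, Fn1, Postn and Acta2 windows in each library by group (horizontal axis, n = 3 per group); points are libraries, bars are group means, and open red circles are GT replicate 1 and GMT replicate 1. Postn-1 was above 20 CPM in every library with M, and GMT replicate 1 stood at control levels at Col1a2-1, Col3a1/Col5a2-5 and Acta2-1.

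The Tcf21 window held 2 regions, and neither passed the filter. Tcf21-2 (chr10:22494567-22494773, 207 bp), the leading one, measured 11.1, 10.4 and 10.4 CPM in the control from 5, 8 and 11 counts, 13.4, 13.4 and 13.3 CPM in M, and 0, 3.59 and 11.4 CPM in T. Tcf21-1 (chr10:22466863-22467065, 203 bp) measured 13.4, 10.4 and 1.89 CPM in the control and 0, 0 and 3.80 CPM in T. Counts of 0 in T allow up to 8.79 CPM in replicate 1 and 5.38 CPM in replicate 2. When all regions were fitted without the filter, neither region was called against the control in any group, and for T the differences were -1.05 ± 0.70 at Tcf21-2 (edgeR adjusted p = 0.37) and -2.41 ± 1.02 at Tcf21-1 (adjusted p = 0.103). In the same fit Tcf21-1 was higher in M than in T, a comparison chosen after the data were examined, by 2.89 ± 0.96 (adjusted p = 0.0245). Its M libraries stood at 1.67, 17.6 and 13.3 CPM and overlapped those of T. The fit without the filter was not repeated with each library left out. These values rest on 0 to 22 counts per library.

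Comparisons matched for the inhibitors asked what each factor added when joined to another factor or a pair, as the average over 3 backgrounds. Adding G was called at 3 of 14 regions, all higher (all regions 22.2%, 15% higher and 7.25% lower). Adding M was called at 2, both higher (20.8%, 16.2% and 4.58%), and adding T at 4, 2 higher and 2 lower (26.2%, 20.3% and 5.86%). The median log2 change of the 14 was -0.037 for G, 0.046 for M and 0.11 for T, beside -0.024, -0.053 and -0.066 over all regions. Col1a2-1 and Col3a1/Col5a2-5 were in none of these calls, and neither was Acta2-1: their called differences were all from the control, which lacked the factors as well as the inhibitors. Each background here already held a factor, so a change that every single factor gave alone could go unseen. Whether factors or inhibitors lowered these regions was not tested. At Acta2-1 the edgeR adjusted p was 0.0792 for T added (1.09 ± 0.46), 0.332 for G added and 0.565 for M added. In the direct comparison of M with T it was 0.0521.

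Adding G raised Col1a1-7 by 1.74 ± 0.25 (log2, SE, edgeR adjusted p = 9.78e-06), Fn1-2 by 1.81 ± 0.39 (0.00112) and Acta2-2 by 1.40 ± 0.35 (0.00385). Adding M raised Postn-1 by 3.10 ± 0.32 (edgeR adjusted p = 1.01e-08) and Fn1-1 by 2.34 ± 0.44 (0.000142). Those 5 calls held without each library in turn. Without both apart libraries the changes with G were 1.81 ± 0.25 at Col1a1-7 (edgeR adjusted p = 2.26e-06), 2.09 ± 0.34 at Fn1-2 (2.57e-05) and 1.39 ± 0.35 at Acta2-2 (0.00377). With M they were 3.16 ± 0.33 at Postn-1 (edgeR adjusted p = 4.65e-09) and 2.55 ± 0.44 at Fn1-1 (3.2e-05). For Postn-1, all libraries of the groups with M were above all those of the groups they were compared with. The mean of Fn1-2 was 4.11 CPM in T and 26.0 CPM in GT, and 8.19 CPM in MT and 30.8 CPM in GMT. Between M and GM it differed less, at 6.78 and 9.82 CPM, and the change within a single background was not tested.

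Adding T raised Fn1-2 by 1.41 ± 0.37 (log2, SE, edgeR adjusted p = 0.00418) and lowered Col1a1-4 (-0.59 ± 0.15, adjusted p = 0.00303), and both calls held without each library in turn. Without both apart libraries these were 1.65 ± 0.32 (edgeR adjusted p = 9.14e-05) and -0.58 ± 0.17 (0.00636). The mean of Fn1-2 was 4.93 CPM in G and 26.0 CPM in GT, and 9.82 CPM in GM and 30.8 CPM in GMT. In M and MT it was 6.78 and 8.19 CPM, so the rise with T was seen mainly in the backgrounds with G. The change within a single background was not tested. Postn-1 rose by 0.95 ± 0.31 (adjusted p = 0.0212), a call that ended in 7 fits without a library, namely G replicate 1 (0.0729), G replicate 3 (0.0712), M replicate 1 (0.05), M replicate 2 (0.0501), GT replicate 3 (0.0534), MT replicate 2 (0.0551) and GMT replicate 3 (0.0544), and with loess offsets (0.0631). Without both apart libraries it was 0.90 ± 0.34 (adjusted p = 0.0357). The backgrounds behind this average were unlike. Postn-1 averaged 2.50 CPM in G (1 to 2 counts) and 7.57 CPM in GT (4 to 7 counts). It averaged 48.2 CPM in M and 55.5 CPM in MT, and 26.9 CPM in GM and 43.1 CPM in GMT. The change within a single background was not tested. Col1a1-7 was lower by -0.63 ± 0.23 (adjusted p = 0.041), a call that ended without G replicate 3 (0.143), GM replicate 1 (0.0829), MT replicate 1 (0.0701) or GMT replicate 3 (0.103), with the replicate number as a block (0.0565), and without both apart libraries (0.054).

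**Figure D4:**
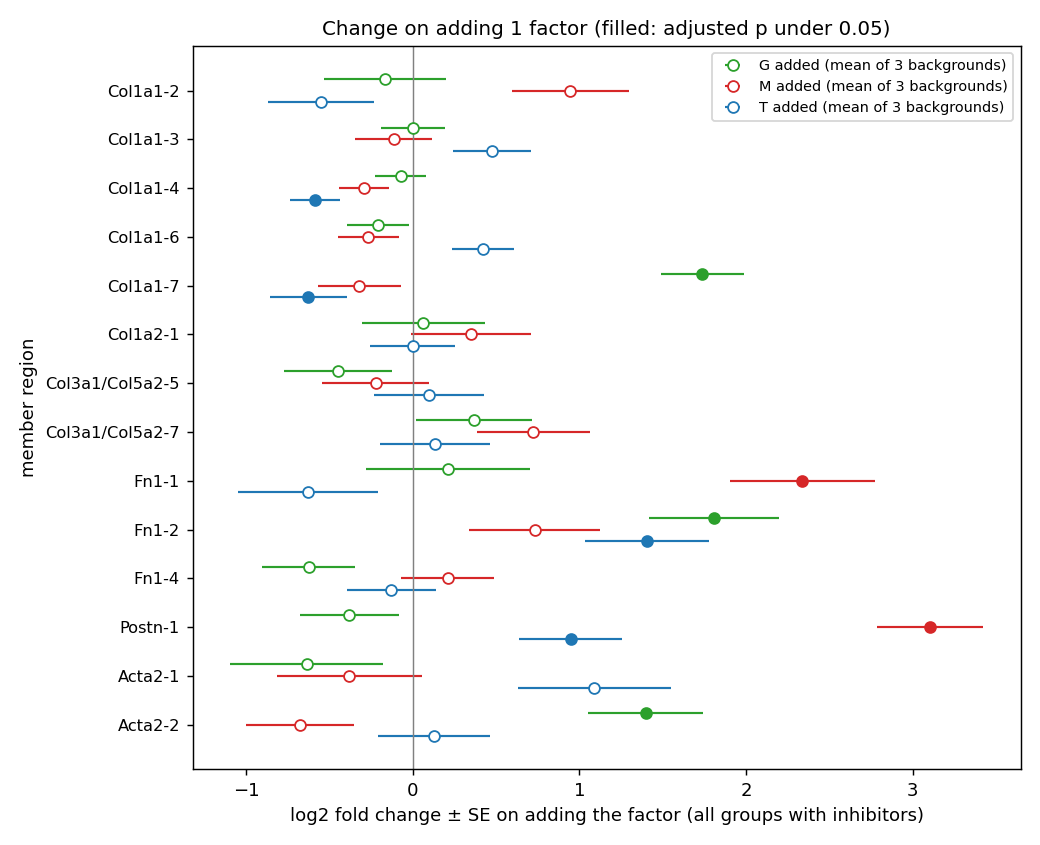
Log2 fold change with SE (horizontal axis) on adding G, M or T to another factor or a pair, averaged over 3 backgrounds, at the 14 tested regions (vertical axis); filled points had an edgeR adjusted p under 0.05. The largest change was that of Postn-1 with M, at 3.10, and Fn1-2 was called with both G and T.

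Direct comparisons of the single factors, also matched for the inhibitors, were chosen after the data were examined. G against T gave 2 higher and 1 lower of the 14 (all regions 33.4%, 16.7% higher and 16.7% lower). M against G gave 1 higher and 2 lower (30.7%, 14.9% and 15.8%), and M against T gave 3 higher and 2 lower (31.4%, 15.3% and 16.1%). Col1a1-7 was higher in G than in T by 3.11 ± 0.45 (log2, SE, edgeR adjusted p = 6.2e-06) and lower in M than in G by -1.79 ± 0.39 (adjusted p = 0.000732), so that its order was G, then M, then T. M exceeded T there by 1.32 ± 0.48 (adjusted p = 0.0351), a call that ended without M replicate 1 (0.112), M replicate 3 (0.0676), T replicate 1 (0.164) or T replicate 2 (0.111).

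Postn-1 was higher in M than in G by 4.61 ± 0.60 (log2, SE, edgeR adjusted p = 1.38e-06) and than in T by 2.76 ± 0.54 (adjusted p = 0.00018). Acta2-2 was lower in M than in G by -2.40 ± 0.61 (adjusted p = 0.00277). These 3 calls, and those of Col1a1-7 for G against T and for M against G, held without each library in turn.

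At the remaining Col1a1 regions, Col1a1-4 was higher in G than in T by 0.84 ± 0.26 (log2, SE, edgeR adjusted p = 0.0122), a call that ended without G replicate 3 (0.0813) or T replicate 1 (0.0598). M differed from T at the 2 neighbouring regions in opposite directions, by 2.17 ± 0.65 at Col1a1-2 (edgeR adjusted p = 0.0101, ended without T replicate 1 at 0.0627) and by -1.21 ± 0.42 at Col1a1-3 (adjusted p = 0.0262). The latter ended without any 1 M library (0.0586 to 0.0948), T replicate 1 (0.137) or T replicate 2 (0.0624). Col1a1-6 was lower in M than in T by -1.07 ± 0.33 (adjusted p = 0.0108, ended without T replicate 2 at 0.0724). Its difference between G and T, -0.82 ± 0.32 (adjusted p = 0.0449), ended in 16 of 24 fits without a library, with adjusted p up to 0.216 without T replicate 2. It also ended with total counts alone (0.0696), no filter (0.136), the replicate number as a block (0.0596) and only the groups compared (0.0619).

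Interactions asked whether 2 factors together differed from the sum of their separate effects on the log2 scale, with the third factor present, and were also chosen after the data were examined. By edgeR's quasi-likelihood test 0 of the 14 regions and 0% of the 20494 regions were called in any of the 3 interactions, and DESeq2 also called 0. At an unadjusted p under 0.05 the G by M interaction had 2214 regions, the G by T interaction 889 and the M by T interaction 749, with 1, 0 and 0 of the 14 among them. That region was Col1a1-6 (1.01 ± 0.45, edgeR adjusted p = 0.428). At Fn1-2 the interaction of G and T with M present was 1.36 ± 0.94 (edgeR adjusted p = 1), and 1.66 ± 0.82 (adjusted p = 0.652, unadjusted p = 0.0496) without both apart libraries, so a departure from additivity was not shown with M present. That interaction uses GMT, MT, GM and M and no library of GT, G or T. It therefore does not address the calls at Fn1-2 against the control in GT and not in G or T. Without M it could not be computed, because no factor-free group with inhibitors was analysed. At Col1a1-6 the interaction of G and M was 0.98 ± 0.43 (edgeR adjusted p = 0.474) without both apart libraries. Lower unadjusted p in that fit were seen at Col3a1/Col5a2-5 and Acta2-1. For G and T, Col3a1/Col5a2-5 was -2.11 ± 0.74 (edgeR unadjusted p = 0.00662, adjusted p = 0.503) and Acta2-1 -2.94 ± 1.10 (0.0109 and 0.52). For G and M, Acta2-1 was -2.47 ± 1.00 (0.0186 and 0.445). That fit also called 0 of all regions.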

How the data were processed

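Per the labels' protocols, each ATAC-seq library started from 50000 cells, was amplified for 12 cycles and was read as paired ends of 100 bp. The submitters' processing notes name Bowtie2, Picard, featureCounts and mm9. Versions, the definition of the regions and whether reads or fragments were counted are not given in the sources used here. The deposited values are raw counts in each region for 24 of 27 labelled samples, not normalised by the authors, judging by whole numbers with differing totals.

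All regions were fitted with edgeR 4.0.16 in R 4.3.3 (filterByExpr with minimum count 10 and minimum total 15, TMM, 8 groups in 1 quasi-likelihood model), which left 20494 (66.5%). P-values were Benjamini-Hochberg adjusted within each comparison, with a threshold of 0.05. The SE is the log2 fold change divided by the square root of F. The square root of the common dispersion was 0.294. The script was tested on simulated data. Limits for counts of 0 use 3 counts per library and cover counting error only.

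Alternatives were RLE, total counts, offsets from R's loess function, DESeq2 1.42.0, no or a stricter filter (minimum count 30), a replicate block, only the groups compared, and leaving out each library. Leaving out both apart libraries, the single-factor comparisons and the interactions were added after the data were examined. The regions and lists were chosen with earlier results of these data known. Named regions were the leading region of each window and up to 3 called regions per comparison and direction. No mm9 genome or annotation was used, so region sequences and a list of further matrix genes were not used here.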

Additional observations from a re-analysis of the deposited data

How the results depend on the processing

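Of the named calls, none changed direction under any alternative run. With 1 library left out, the members called ranged from 1 to 5 in G against the control, 2 to 6 in M, 0 to 3 in T, 0 to 4 in GM, 0 to 4 in GT, 1 to 3 in MT, 2 to 6 in GMT and 1 to 6 in the average of 7 groups. Calls over all regions moved as well, over 1318 to 4535 in G, 1757 to 3807 in M and 3390 to 5733 in T. The ranges were 757 to 3132 in GM, 1411 to 4246 in GT and 2638 to 5738 in MT. In GMT the range was 3997 to 8166, and in the average 1395 to 5027. The main fit called 3213, 3308, 5153, 2510, 3872, 5053, 6869 and 4286 over all regions, in that order. Members called ranged from 3 to 4 for G added, 2 to 4 for M added, 2 to 7 for T added, 2 to 5 for G against T, 3 to 6 for M against G and 2 to 8 for M against T, and stayed at 0 for the interactions, where leaving out 1 library called up to 21 of all regions for G and M. Calls over all regions ran over 3578 to 4902 for G added, 3528 to 5382 for M added and 4347 to 6678 for T added. For G against T they ran over 4806 to 7475, for M against G 4391 to 7217 and for M against T 5002 to 6910. The main fit called 4555, 4262, 5361, 6839, 6293 and 6434 over all regions, in that order. Total counts in place of TMM ended the calls of Acta2-1 in G (edgeR adjusted p = 0.063) and GMT (0.0534), of Col3a1/Col5a2-5 in GT (0.0558) and of Col1a1-6 for G against T (0.0696), and no filter ended those of Col1a1-3 (0.0509) and Col1a1-7 (0.0524) for M against T, of Col1a1-7 in GT (0.0989) and of Col1a1-6 for G against T (0.136). DESeq2 ended Acta2-1 in G (0.0589) and Col1a1-7 in GT (0.0541). The replicate block ended Col1a1-7 in GT (0.054) and with T added (0.0565) and Col1a1-6 for G against T (0.0596). The stricter filter tested 5 members and called 2 in M, 1 in GT, 2 in GMT, 2 in the average, 1 for G added and 1 for M added. Over all regions it called 1479, 1862, 3060, 2270, 2281 and 1629 in these, in that order. Fits with only the groups compared called 5 of 10 members tested in G, 6 of 12 in GM and 4 of 9 in MT, beside 3881, 3230 and 5484 over all regions. These fits, and those with another filter or fewer libraries, selected the regions to test anew. The number of all regions they tested is not given here, so no share can be set beside their member counts. Loess offsets called 5 in GM and 2 in MT, RLE 2 in MT and DESeq2 3 in MT, beside 2381, 4553, 5045 and 4645 over all regions. No filter, which tested all 26 members, called 2 in MT, 4 for M added and 6 for M against G, beside 4847, 4381 and 7038 over all regions. Without GT replicate 1 and GMT replicate 1, where 17 members passed the filter, 5 were called in G, 1 in GT, 4 in MT, 7 in GMT, 6 for M against G and 8 for M against T. Members called thus fell in GT, from 3 in the main fit, and rose in the others. Calls over all regions rose in all of these comparisons, to 4208, 4336, 6058, 8601, 7333 and 7180, in that order.

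Loess offsets moved the share of higher calls among all regions from 70.8% to 59.6% in MT, 68.7% to 58.4% in GMT, 67.4% to 56.7% for G added, 78.0% to 60.5% for M added and 77.6% to 61.4% for T added. Replicate numbers did not pair the libraries: 24 of 84 same-number pairs had a correlation of deviations above 0.1 (median 0.0146), and 11 of 24 libraries correlated best with their own number. With the replicate number as a block, members called were 3 in G, 4 in M, 2 in T, 3 in GM, 2 in GT, 1 in MT, 4 in GMT, 4 in the average, 3 for G added, 2 for M added, 3 for T added and 2 for G against T. Over all regions that fit called 3163, 3268, 5164, 2447, 3747, 4990, 6902, 4269, 4506, 4242, 5216 and 6705, in that order. Low counts limit these regions: many members had under 10 counts in some libraries, and 12 could not be tested. The cause of these changes was not tested beyond the number of regions or libraries each alternative used.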

Other observations

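Some of the 12 regions left out by the filter were called when all regions were fitted without it. Col1a2-3 (chr6:4552748-4552950) had 14, 14 and 9 counts in M and 0, 2 and 4 in the control, a difference of 2.70 ± 0.70 (log2, SE, edgeR adjusted p = 0.00727), and it also exceeded G by 3.29 (adjusted p = 0.000615). Col3a1/Col5a2-4, which starts 858 bp before Col3a1/Col5a2-5, was lower in M than in the control by -2.35 ± 0.77 (adjusted p = 0.04), as its neighbour was. It had 2, 1 and 1 counts in M and 8, 8 and 6 in the control. The average of the 7 factor groups was also called lower, by -1.62 ± 0.48 (edgeR adjusted p = 0.0177). The remaining groups were not called, with differences from -0.94 in GMT to -1.95 in GT. Adding M raised Col3a1/Col5a2-2 by 1.51 ± 0.53 (adjusted p = 0.0478) and Tcf21-1 by 1.44 ± 0.48 (adjusted p = 0.0349). Adding T lowered Col1a1-5, between Col1a1-4 and Col1a1-6, by -1.30 ± 0.39 (adjusted p = 0.0142). These were singled out after their values were seen, and were not refitted with each library left out.

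Outside the 7 windows, the region whose log2 level followed Postn-1 most closely over the 24 libraries was chr2:48254008-48254321, with a Pearson correlation of 0.954. For Col1a1-6 it was chr8:74021871-74022125 (0.909), for Acta2-1 chr11:112924389-112924640 (0.894), for Col3a1/Col5a2-5 chr1:9738362-9738766 (0.885), for Col1a2-1 chr1:140745191-140745391 (0.865), for Tcf21-2 chr14:75310507-75310773 (0.777) and for Fn1-4 chr3:129768461-129768731 (0.77). Each is the highest among all regions outside the windows, all points share the libraries and their depth, and no test was made.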
